A study of Mus musculus with 15 samples.

Results

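The core p53 pathway genes *Trp53*, *Cdkn1a* and *Mdm2* were followed through region counts of 6DT1 cells, a metastatic mouse mammary cancer cell line. The methods describe the assay as ATAC-seq, which reads chromatin accessibility. Members were all regions of the deposited tables that overlap 1 window per gene in mm39, which was chr11:69469500-69484500 for *Trp53*, chr17:29308000-29321500 for *Cdkn1a* and chr10:117523000-117548500 for *Mdm2*. The windows do not use any measured value, but they were chosen with earlier results of these data known. One table, made for the knockdown comparison (the KD table), held 8 such regions of 44598, with 2 in *Trp53*, 2 in *Cdkn1a* and 4 in *Mdm2*. The other table, made for the overexpression comparison (the OE table), held 19 of 38036, with 4, 4 and 11 in the same order of genes. Each of the 8 regions of the KD table overlapped a region of the OE table, so the tables describe partly the same DNA in the same libraries and are not independent. Regions of the same gene were counted in the same libraries and are not independent of each other either.

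The series comprised 15 libraries of untreated 6DT1 monolayers, 3 of each of 5 lines, and all lines had been transduced with lentivirus. The knockdown lines KD6 and KD4 carry shRNAs against *Smarcd1*, a subunit of the BAF chromatin remodeling complex, and the Scr line carries a scramble shRNA. The OE line carries a Myc-tagged *Smarcd1* cDNA behind a pol2 promoter, and the EV line carries an empty vector. According to the methods, shRNA lines were kept under puromycin and overexpression cells under blasticidin, so vector, selection and line cannot be told apart between the shRNA lines and the other pair. The sample numbers of EV and OE all come before those of the shRNA lines, so sample order cannot be told apart from that split either. Whether the order marks a batch is not stated in the sources used. Nothing in the sources used says whether a line is a clone, the genotype of Scr and EV is labelled wildtype, and the labels do not say which shRNA KD4 or KD6 received. The labels' protocol says that each biological replicate came from another passage, but it describes RNA extraction, and the submitters' processing notes name the RNA aligner STAR, whereas the methods describe ATAC-seq of nuclei. It is therefore uncertain that all counted reads come from ATAC-seq, and values are given below as counts over regions. Libraries had between 16176518 and 23703753 counts over the KD table, and between 22668622 and 31225956 over the OE table. The knockdown itself was not checked in these counts, because no region was tied to *Smarcd1* without an annotation of mm39, and the markers of mammary cells were not checked for the same reason.

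*Trp53* encodes p53, a transcription factor that is stabilized by DNA damage and other stress. *Cdkn1a* encodes p21, a cyclin-dependent kinase inhibitor that holds cells in G1 and is a classical p53 target. *Mdm2* encodes the ubiquitin ligase that marks p53 for degradation and is itself induced by p53, which closes a negative feedback loop. p53 binds DNA as a tetramer over paired half-sites, which may lie in promoters or first introns.

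The promoter sequences of the 3 genes show where p53 half-sites stand near the starts and give the context for the positions of the counted regions. They come from RefSeq on GRCm38.p6, another build than that of the tables, and are written on the strand of the gene, with the half-sites in capitals and positions counted from the gene's start, so that -1 is the base before it.
Cdkn1a, chromosome 17, plus strand, -88 to -27: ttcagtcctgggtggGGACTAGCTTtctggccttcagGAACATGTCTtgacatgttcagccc
Trp53, chromosome 11, plus strand, -90 to -51: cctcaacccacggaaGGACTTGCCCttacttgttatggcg
Mdm2, chromosome 10, minus strand, -201 to -162: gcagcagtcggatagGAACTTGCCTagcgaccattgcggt
The search was for the consensus p53 half-site by name, which reads the same on both strands, in windows of 250 bases before and 50 bases after each start. *Cdkn1a* held 2 half-sites, with first bases at -73 and -51, *Trp53* held 1 at -75 and *Mdm2* held 1 at -186. Of 32851 promoter windows of this length, 8.36% held at least 1 half-site and 0.359% held 2 or more. A match is a description of letters, and binding was not tested. Only exact matches are in capitals, so a half-site with a mismatch would stay in lower case. RefSeq gives *Cdkn1a* a second start 2790 bases downstream, whose window held no half-site.

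The counted regions hardly covered these starts. If each window holds the whole gene at its RefSeq length, the first base of the gene lies within a known stretch of the window, and the distance of every region downstream of it has a lower and an upper bound. For *Cdkn1a*, the KD table had no region closer than 6.82 kb downstream of the first start, and for *Mdm2* none closer than 3.07 kb. The *Trp53* region chr11:69469501-69470017 lies between -3.47 and 0.517 kb from the start, where the divergent neighbour *Wrap53* stands 97 bases away from *Trp53* in RefSeq. In the OE table, only the *Mdm2* region chr10:117544701-117545107 and the *Trp53* region chr11:69469788-69469971 may reach the start. The *Cdkn1a* region chr17:29313372-29313555, between 1.615 and 5.555 kb downstream of the first start, may reach the second.

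The highest level per length stood on the 3′ side of all 3 genes. Levels are CPM, the counts scaled to a common library size with TMM factors, and to compare regions of unequal length they were divided by length. Over all 15 libraries, the *Trp53* region chr11:69482256-69482613 averaged 212.4 CPM per kb and took 85.4% of the CPM of the *Trp53* regions of the KD table, at least 9.28 kb downstream of the start. The *Cdkn1a* region chr17:29318573-29319079 averaged 91.6 CPM per kb and took 78.6% of that gene's CPM. The *Mdm2* region chr10:117526068-117526567 had the highest level of the 3 genes at 321.9 CPM per kb and took 70.3% of that gene's CPM, at least 18.3 kb downstream. The 3 *Mdm2* regions farthest downstream together held 98.9 to 99.3% of the *Mdm2* counts in each library of the KD table, and 77.8 to 83.9% over the OE table, which lists 8 further regions within the gene. The plot of level against position shows this layout for both tables. Whether RNA reads take part in it was not tested.

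**Figure D1:**
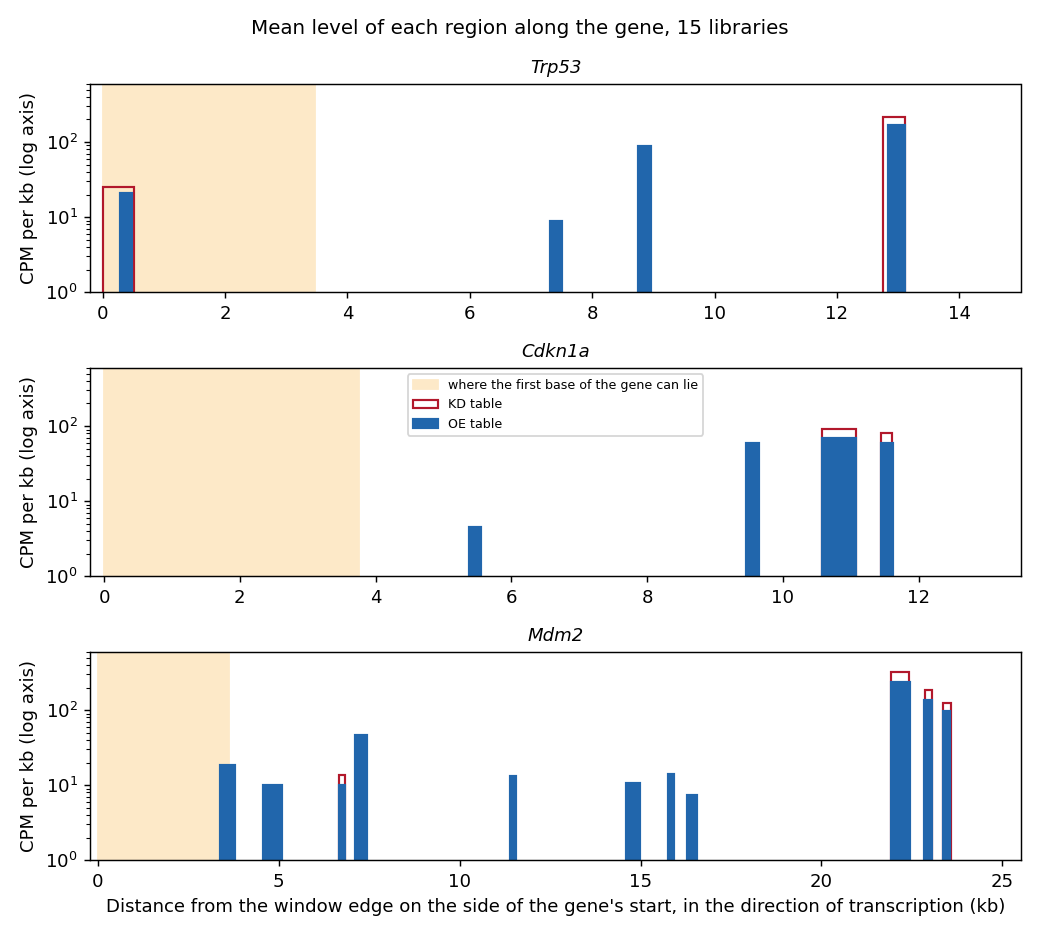
Mean level of each region over 15 libraries in CPM per kb (log axis) against the distance of its centre from the window edge on the start side of the gene (kb), with bar widths to scale, outlined bars for the KD table, filled bars for the OE table and shading where the first base of the gene can lie. The highest bars stand at 12.9 kb for *Trp53*, 10.8 kb for *Cdkn1a* and 22.2 kb for *Mdm2*, all far from the shaded range.

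Among the lines, *Cdkn1a* and *Mdm2* had lower levels in the 9 libraries of KD6, KD4 and Scr than in the 6 libraries of OE and EV, whereas *Trp53* levels overlapped. Values below are sums of CPM over a gene's regions in the KD table. The *Trp53* sum includes chr11:69469501-69470017, which held 14.6% of the *Trp53* CPM over all libraries and may belong to the neighbour *Wrap53*. For *Cdkn1a* the sum was 40.5, 46.3 and 36.4 CPM in KD6, 57.0, 36.6 and 34.6 CPM in KD4, 45.0, 47.7 and 55.5 CPM in Scr, 85.6, 81.7 and 90.1 CPM in OE, and 74.1, 74.2 and 81.2 CPM in EV. The highest of the 9 shRNA libraries, KD4 replicate 1, stood below the lowest of the other 6, EV replicate 1. For *Mdm2* the sum was 194.7, 175.1 and 208.8 CPM in KD6, 189.5, 138.1 and 156.8 CPM in KD4, 230.6, 199.1 and 207.3 CPM in Scr, 285.9, 268.0 and 297.8 CPM in OE, and 268.5, 304.7 and 310.5 CPM in EV. Here too the 9 libraries stood below the other 6, with Scr replicate 1 as the highest of them. For *Trp53* the sum was 91.5, 76.2 and 56.4 CPM in KD6, 81.4, 87.3 and 97.8 CPM in KD4, 86.0, 100.7 and 72.8 CPM in Scr, 90.2, 95.5 and 75.5 CPM in OE, and 124.4, 104.0 and 95.9 CPM in EV. All 5 lines overlapped for *Trp53* except that the EV libraries were above those of KD6 and of OE.

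**Figure D2:**
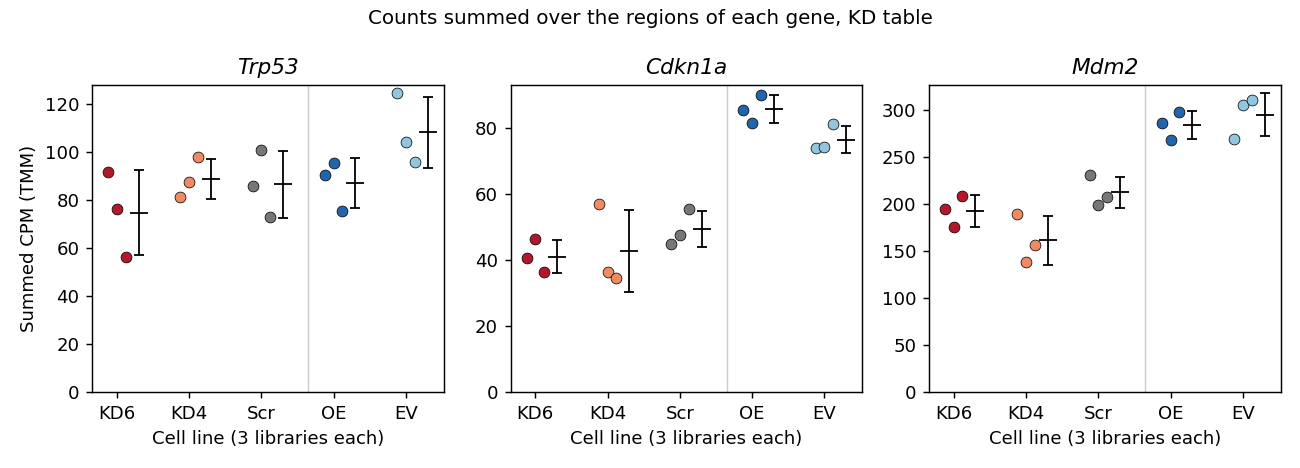
CPM (counts scaled to library size, TMM) summed over the regions of each gene in the KD table, for each library (points) of KD6, KD4, Scr, OE and EV, with the mean and SD of 3 libraries beside them. For *Cdkn1a* the OE and EV points lie between 74.1 and 90.1 CPM, above every KD6, KD4 and Scr point, and for *Trp53* the lines overlap.

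Ordered from low to high, mean *Cdkn1a* sums were 41.1 ± 4.94 CPM in KD6, 42.7 ± 12.4 CPM in KD4, 49.4 ± 5.44 CPM in Scr, 76.5 ± 4.07 CPM in EV and 85.8 ± 4.21 CPM in OE (SD, n = 3 each). Mean *Mdm2* sums were 161.5 ± 26.0 CPM in KD4, 192.9 ± 16.9 CPM in KD6, 212.3 ± 16.4 CPM in Scr, 283.9 ± 15.03 CPM in OE and 294.6 ± 22.8 CPM in EV (SD, n = 3 each). Mean *Trp53* sums were 74.7 ± 17.6 CPM in KD6, 86.5 ± 13.97 CPM in Scr, 87.1 ± 10.3 CPM in OE, 88.8 ± 8.29 CPM in KD4 and 108.1 ± 14.7 CPM in EV (SD, n = 3 each). Neighbours within the shRNA lines, and OE and EV, did not pass the tests below for any sum, whereas Scr and EV did for *Cdkn1a*. KD6 and KD4 were not tested against OE or EV.

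The separation of the shRNA lines from the other pair can be read region by region. In the KD table, all 9 shRNA libraries were below all 6 OE and EV libraries in 2 of 2 *Cdkn1a* regions, 3 of 4 *Mdm2* regions and 0 of 2 *Trp53* regions, against 0.828% of all regions of that table. Over the OE table the counts were 2 of 4 for *Cdkn1a*, 7 of 11 for *Mdm2* and 0 of 4 for *Trp53*, against 0.645% of all its regions. No member region had the opposite order in either table. The map of the OE table shows the blocks of *Cdkn1a* and *Mdm2* dividing between Scr and OE. These counts describe levels and were not tested as such.

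**Figure D3:**
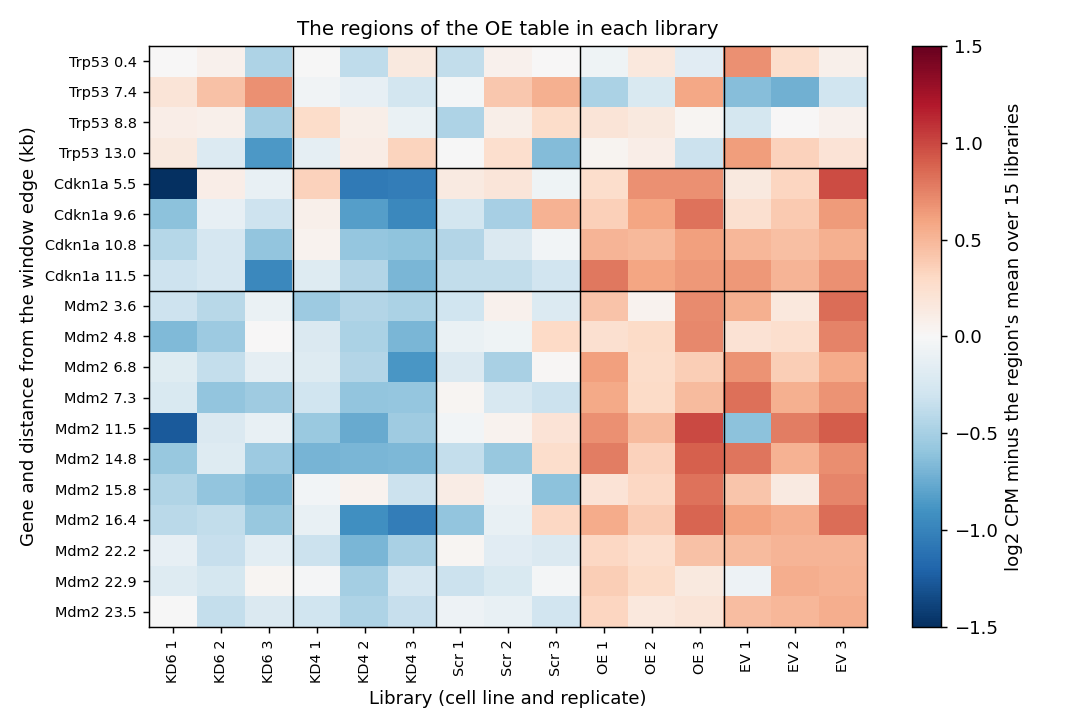
Level of the 19 regions of the OE table in each of the 15 libraries, as log2 CPM minus the mean of the region, with rows named by gene and distance from the window edge (kb) and columns ordered KD6, KD4, Scr, OE and EV. Blue is below and red above the region's mean. *Mdm2* and *Cdkn1a* rows are mostly blue in the first 9 columns and red in the last 6, and *Trp53* rows are mixed.

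The Scr and EV lines are both controls with unaltered *Smarcd1*, and their comparison asks how far the 3 genes differ between the lines against which knockdown and overexpression are set. In the KD table *Cdkn1a* and part of *Mdm2* were lower in Scr than in EV, while *Trp53* did not pass the test. By edgeR's quasi-likelihood test with Benjamini-Hochberg adjustment over all regions, 3 of the 8 member regions passed an FDR of 0.05 and all 3 were lower in Scr. Of all regions tested, 4.38% passed, and 2.2% passed as lower in Scr. An unadjusted p under 0.05 by the same edgeR test was found for 6 of the 8 members and for 22.8% of all regions. The 8 members had log2 fold changes of -0.76 to -0.25 with a median of -0.49, and all 8 were below zero, while 47% of all regions were below zero and their median was 0.02.

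Of the 8 members, the largest difference was at the *Cdkn1a* region chr17:29319451-29319609, with 10.1, 9.43 and 10.2 CPM in Scr and 16.1, 15.996 and 18.5 CPM in EV. Its log2 fold change was -0.76 (SE 0.15, edgeR adjusted p = 0.0105), and the call held without any one library (adjusted p = 0.0139 to 0.0451). The neighbouring *Cdkn1a* region chr17:29318573-29319079, the gene's highest, had 34.9, 38.2 and 45.3 CPM in Scr and 58.0, 58.2 and 62.7 CPM in EV. Its log2 fold change was -0.58 (SE 0.14, edgeR adjusted p = 0.0268). That call was lost without Scr replicate 1 (adjusted p = 0.113), without EV replicate 2 (adjusted p = 0.0896) and without TMM scaling (adjusted p = 0.0701). The *Mdm2* region chr10:117524936-117525152, farthest downstream in the gene, had 26.5, 24.9 and 23.3 CPM in Scr and 33.8, 35.5 and 37.4 CPM in EV. Its log2 fold change was -0.50 (SE 0.14, edgeR adjusted p = 0.0411), and the call was lost whichever library was left out, with an adjusted p of 0.0547 without EV replicate 1, 0.136 without EV replicate 2, 0.0747 without EV replicate 3, 0.0874 without Scr replicate 1, 0.0548 without Scr replicate 2 and 0.153 without Scr replicate 3. In all 3 regions the Scr and EV libraries did not overlap.

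The highest *Mdm2* region, chr10:117526068-117526567, had 170.1, 140.0 and 142.0 CPM in Scr and 198.7, 214.0 and 216.8 CPM in EV, with no overlap and a log2 fold change of -0.47 (SE 0.15, edgeR adjusted p = 0.0671). For *Trp53*, the highest region chr11:69482256-69482613 had 74.0, 89.7 and 58.2 CPM in Scr and 107, 89.3 and 82.7 CPM in EV, and these overlapped (log2 fold change -0.32, SE 0.16, edgeR adjusted p = 0.243). The region at or before the *Trp53* start, chr11:69469501-69470017, had a log2 fold change of -0.25 (SE 0.16, edgeR adjusted p = 0.366).

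Summed per gene, *Cdkn1a* in Scr was 64.6% of its EV mean, with a log2 fold change of -0.62 (SE 0.14, edgeR adjusted p = 0.0189). The call for *Cdkn1a* was lost without Scr replicate 1 (adjusted p = 0.0901) and without EV replicate 2 (adjusted p = 0.07). *Mdm2* in Scr was 72.1% of its EV mean (log2 fold change -0.46, SE 0.15, edgeR adjusted p = 0.0743), and *Trp53* was 80% of it (log2 fold change -0.31, SE 0.15, edgeR adjusted p = 0.234). An exact permutation test of 3 libraries against 3 cannot go below p = 0.1, which *Cdkn1a* and *Mdm2* reached, and *Trp53* had p = 0.2 (two-sided). EV libraries had 21050536 to 23703753 counts and TMM factors of 0.882 to 1.01, against 16176518 to 19152971 counts and factors of 1.00 to 1.06 in Scr. Without TMM scaling the median of all regions moved to 0.12, and the *Cdkn1a* regions had log2 fold changes of -0.48 and -0.66.

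Over the regions of the OE table the same comparison counted 7 of 19 members past the threshold, all lower in Scr, against 2.93% of all its regions called lower. Of the 7, 5 were in *Mdm2* and 2 in *Cdkn1a*. The *Mdm2* region chr10:117541059-117541392, between 3.49 and 7.44 kb downstream of the start, had 15.1, 12.5 and 11.8 CPM in Scr and 26.3, 21.3 and 23.5 CPM in EV (log2 fold change -0.86, SE 0.16, edgeR adjusted p = 0.0069). The region nearest the *Mdm2* start, chr10:117544701-117545107, had 5.94, 7.64 and 6.32 CPM in Scr and 10.6, 8.14 and 13.1 CPM in EV (log2 fold change -0.68, SE 0.19, edgeR adjusted p = 0.0395). All 11 *Mdm2* regions and all 4 *Cdkn1a* regions had negative log2 fold changes, against 48.5% of all regions. The *Mdm2* sum then passed the threshold as well (log2 fold change -0.63, SE 0.16, edgeR adjusted p = 0.0331). *Trp53* was mixed in this table, since the small region chr11:69476811-69477013 had 1.70, 2.30 and 2.51 CPM in Scr and 1.12, 1.05 and 1.41 CPM in EV (log2 fold change 0.86, SE 0.27, edgeR adjusted p = 0.0622), while the highest one was at -0.49 (SE 0.19, adjusted p = 0.108).

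**Figure D4:**
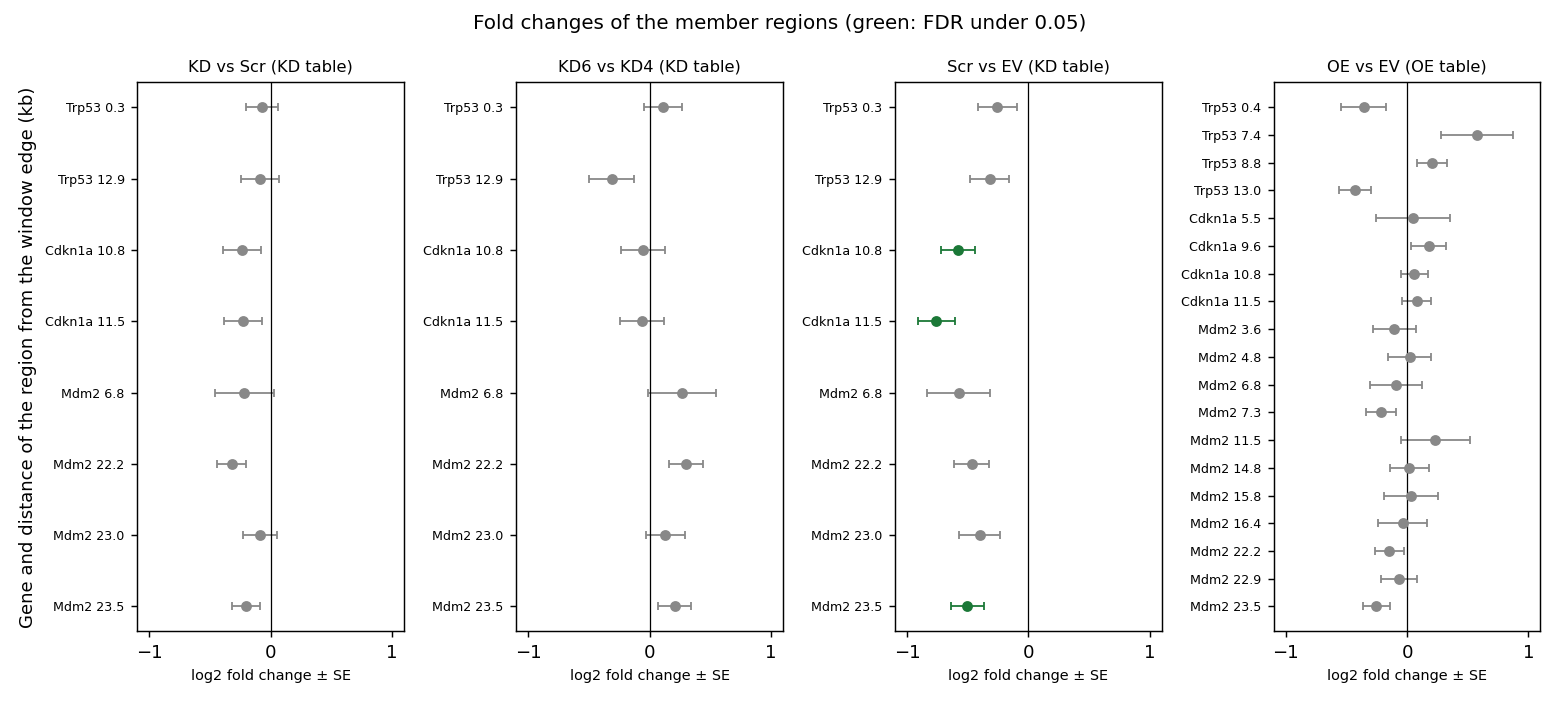
Log2 fold change of each member region with its SE in 4 comparisons, the first named line over the second (KD over Scr, KD6 over KD4 and Scr over EV in the KD table, OE over EV in the OE table), with rows named by gene and distance from the window edge (kb). Green points passed an FDR of 0.05. All 3 of them are in Scr over EV and lie between -0.76 and -0.50.

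The *Smarcd1* knockdown lines were set against the Scr line to ask whether counts over the regions differ, and none of the 3 genes passed the test. By edgeR's quasi-likelihood test of the mean of KD6 and KD4 against Scr, 0 of 8 member regions passed an FDR of 0.05, where 0.271% of all regions did, and DESeq2 also called 0. An unadjusted p under 0.05 was found for 1 of the 8 members and for 8.25% of all regions, so that 1 of 8 is near the share of the whole table. Log2 fold changes of the 8 ran between -0.32 and -0.07 with a median of -0.21, all below zero, where 50.9% of all regions were below zero with a median of -0.01. The summed fold changes were -0.08 for *Trp53* (SE 0.14), -0.24 for *Cdkn1a* (SE 0.15) and -0.27 for *Mdm2* (SE 0.12), and the adjusted p-values were 0.92, 0.725 and 0.563 in that order of genes. Exact two-sided permutation tests of the sums gave p = 0.69 for *Trp53*, 0.19 for *Cdkn1a* and 0.0833 for *Mdm2*, where 6 libraries against 3 can reach 0.0119.

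The *Mdm2* region with an unadjusted p under 0.05 was the gene's highest, chr10:117526068-117526567. It had 136.2, 121.1 and 143.6 CPM in KD6 and 127.1, 92.8 and 105.7 CPM in KD4, against 170.1, 140.0 and 142.0 CPM in Scr. Of the 6 knockdown libraries, KD6 replicate 3 alone was within the Scr range, and the log2 fold change was -0.32 (SE 0.12, unadjusted p = 0.0156, edgeR adjusted p = 0.456). Taken apart, KD4 had an *Mdm2* sum at 76.1% of Scr (log2 fold change -0.39, SE 0.14, edgeR adjusted p = 0.294) and KD6 one at 90.9% (log2 fold change -0.14, SE 0.14, edgeR adjusted p = 0.975). In KD4 alone, the highest *Mdm2* region had a log2 fold change of -0.47 (SE 0.14, unadjusted p = 0.00366, edgeR adjusted p = 0.183). In KD6 alone, that region had a log2 fold change of -0.17 (SE 0.14, edgeR adjusted p = 0.965). For *Cdkn1a* the KD6 and KD4 sums were at 83.1% and 86.5% of Scr, and KD4 replicate 1, at 57.0 CPM, stood above every Scr library. The *Trp53* sum in KD6 was at 86.4% of Scr and in KD4 at 103%. Of the 19 members of the OE table, 17 were below zero in this comparison, against 52.8% of all its regions, whose median was -0.02. These 17 were 11 of 11 *Mdm2*, 4 of 4 *Cdkn1a* and 2 of 4 *Trp53* regions. An unadjusted p under 0.05 was found for 3 of the 19, against 9.86% of all, and 0 passed the threshold.

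The knockdown lines were compared with each other in the same fit, and 0 of 8 member regions differed between KD6 and KD4 by edgeR's quasi-likelihood test at an FDR of 0.05, where 0.224% of all regions did. DESeq2 called 0, and an unadjusted p under 0.05 was found for 1 of the 8, near the 6.37% of all regions. That region was again the highest of *Mdm2*, with 136.2, 121.1 and 143.6 CPM in KD6 and 127.1, 92.8 and 105.7 CPM in KD4 and a log2 fold change of 0.30 (SE 0.14, unadjusted p = 0.0469, edgeR adjusted p = 0.772). All 4 *Mdm2* regions were above zero, both *Cdkn1a* regions were below it at -0.06 and -0.05, and the highest *Trp53* region was at -0.31 (SE 0.18, edgeR adjusted p = 0.91). For *Trp53* the KD6 libraries spread widely in that region, with 78.8, 63.2 and 44.9 CPM in KD6 and 69.9, 77.0 and 85.1 CPM in KD4.

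Overexpression of *Smarcd1* was set against EV in the OE table, and again no member passed the test. By edgeR's quasi-likelihood test 0 of 19 regions passed an FDR of 0.05, where 0.0106% of all regions did, and DESeq2 also called 0. An unadjusted p under 0.05 was found for 2 of the 19 and for 8.57% of all regions, which are similar shares. Below zero were 9 of the 19 and above it 10, with a median of 0.02, which was also the median over all regions. The *Cdkn1a* sum was 77.9, 77.9 and 85.6 CPM in OE and 75.0, 73.7 and 81.3 CPM in EV, and these overlapped (log2 fold change 0.09, SE 0.11, edgeR adjusted p = 0.821). The *Cdkn1a* sums of OE and EV did not overlap over the KD table (log2 fold change 0.17, edgeR adjusted p = 0.793). The *Mdm2* sum was 264.9, 245.2 and 277.0 CPM in OE and 278.4, 291.5 and 303.9 CPM in EV, without overlap over this table (log2 fold change -0.13, SE 0.13, edgeR adjusted p = 0.75). Over the KD table the *Mdm2* sums of OE and EV overlapped, with a log2 fold change of -0.048. Over the OE table without TMM scaling, the log2 fold change of the *Mdm2* sum was -0.035. The *Trp53* sum was 74.7, 77.1 and 62.8 CPM in OE and 95.8, 84.6 and 79.4 CPM in EV, also without overlap (log2 fold change -0.26, SE 0.12, edgeR adjusted p = 0.583). Exact permutation tests gave the smallest p of that design, 0.1, for *Trp53* and *Mdm2* and 0.4 for *Cdkn1a* (two-sided, n = 3 each).

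Within *Trp53* no region of the OE table passed the test between OE and EV, and differences between its regions were not tested. The highest region, chr11:69482327-69482613, had 48.9, 51.2 and 38.2 CPM in OE and 73.4, 60.8 and 55.0 CPM in EV, without overlap (log2 fold change -0.43, SE 0.13, unadjusted p = 0.00513, edgeR adjusted p = 0.569). The region chr11:69478247-69478454, nearer the start, had 20.9, 20.2 and 18.6 CPM in OE and 15.2, 18.3 and 19.0 CPM in EV, which overlapped (log2 fold change 0.20, SE 0.12, edgeR adjusted p = 0.635). The ratio of the counts of the first to the second was 2.34, 2.53 and 2.05 in OE and 4.81, 3.33 and 2.89 in EV. It also varied within lines, at 2.68, 2.14 and 2.06 in KD6, 1.97, 2.66 and 3.55 in KD4 and 3.57, 2.93 and 1.38 in Scr, so that Scr replicate 3 was the lowest and EV replicate 1 the highest of the 15 libraries. The other member with an unadjusted p under 0.05 was the *Mdm2* region chr10:117524938-117525142, with 24.5, 22.0 and 22.4 CPM in OE and 27.0, 27.6 and 28.6 CPM in EV (log2 fold change -0.25, SE 0.11, unadjusted p = 0.0342, edgeR adjusted p = 0.569).

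All 8 members of the KD table and all 19 of the OE table passed the filter on low counts in each comparison made on their own table. The smallest count of a member in any library was 21 over the regions of the KD table and 7 over those of the OE table. The faintest member was the *Cdkn1a* region chr17:29313372-29313555 of the OE table, with a mean of 0.833 CPM, whose log2 fold change between OE and EV was 0.05 with an SE of 0.30, so that a change of that size would not be detectable there.

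As a description, the regions of the KD table whose levels followed the highest region of each gene most closely over the 15 libraries were sought among 23818 regions with a mean of at least 5 CPM. For *Cdkn1a* the closest was chr19:5808043-5808573 (Pearson r = 0.953), for *Trp53* chr12:4867611-4867782 (r = 0.945) and for *Mdm2* chr4:11173562-11173820 (r = 0.928). The points of each correlation share their libraries and their scaling, and with so many candidates a high r has little weight.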

How the data were processed

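According to the methods, the authors ran Bowtie2 against mm39 on paired-end ATAC-seq reads and used MACS for peaks, both in Partek Flow. STAR 2.7.8a and mm39 stand in the submitters' processing notes. How peaks were merged and reads assigned to them is not stated. The authors deposited expected counts for every region. Of these, 95.1% were whole over the KD regions and 95% over the OE regions, and all were rounded. Each table has 15 further columns that match no sample and were not used.

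Each comparison was fitted across a whole table with edgeR 4.0.16 (quasi-likelihood test, TMM, filterByExpr, Benjamini-Hochberg adjustment, FDR 0.05) in R 4.3.3. KD6, KD4 and Scr were fitted together, OE and EV alone, and Scr and EV alone. Sums replaced the regions of a gene by 1 row. Counts were tested also by DESeq2 1.42.0, under other scalings, filters and thresholds, with all 15 libraries, over the other table, with a replicate block, without each library, and by exact permutation in scipy 1.17.1. The procedure was tested on simulated data. CPM used TMM over 15 libraries. The p-values reflect the spread among the 3 libraries of a line, except that the permutation of KD against Scr pooled the libraries of KD6 and KD4.

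The members, windows and lists were chosen with earlier results of these data known. Regions named were each gene's highest and those past the threshold in the table made for the comparison. Those with an unadjusted p under 0.05 there were named for KD against Scr, KD6 against KD4 and OE against EV. For Scr against EV, not all such regions were named. *Trp53* and *Mdm2* regions of the OE table beyond these were chosen after their values were seen. Likeness used log2(CPM + 0.5). A list of other p53 pathway genes and cell type markers needed an annotation of mm39 and was not applied, and region sequences were not read.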

Additional observations from a re-analysis of the deposited data

How the results depend on the processing

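For KD against Scr, KD6 against KD4 and OE against EV, no member region and no gene sum passed an FDR of 0.05 under any alternative run. This included leaving out each library, and in the main fit none passed an FDR of 0.1. For KD4 alone against Scr, the highest *Mdm2* region had an edgeR adjusted p of 0.0812 with all 15 libraries in 1 fit. Its DESeq2 adjusted p was 0.0987. For Scr against EV, 3 member regions passed in the main analysis, and 0 passed at an FDR of 0.01, 1 without TMM scaling and 7 over the regions of the OE table; leaving out 1 library gave 1 to 3, with 1 without Scr replicate 1 and 1 without EV replicate 2. Of the gene sums, 1 passed in the main analysis, and 2 passed at an FDR of 0.1, with DESeq2, with all 15 libraries in 1 fit and over the OE table, while 0 passed at an FDR of 0.01; leaving out 1 library gave 0 to 1. The *Cdkn1a* sum kept an edgeR or DESeq2 adjusted p of 0.00139 to 0.04998 under the alternatives that kept all libraries. Signs turned for 2 small differences: the *Trp53* sum between KD and Scr was 0.012 over the OE table and 0.039 without Scr replicate 2 (-0.20 to 0.039 without 1 library), and the *Cdkn1a* sum between KD6 and KD4 was 0.023 without KD6 replicate 3 and 0.21 without KD4 replicate 1 (-0.19 to 0.21 without 1 library). Over the whole table DESeq2 called 270 regions for KD against Scr, where edgeR called 120, and 246 for KD6 against KD4, where edgeR called 99. The permutation test could not reach the threshold with 3 libraries against 3, and gave 0 sums for KD against Scr. The main fits did not pair libraries by replicate number. Same-numbered libraries correlated at -0.35 to 0.34 in their deviations from the group means over both tables. All 3 correlations were over 0.1 in 0 of 10 pairs of groups. With 3 libraries per line, these correlations cannot exclude a pairing. With the replicate number as a block, 3 member regions and 1 sum passed for Scr against EV and 0 elsewhere. Libraries correlated best with their own number in 3 of 3 for Scr and EV over the OE table, a hint from the data alone, and in 1 or 2 of 3 in the other 9 pairs of groups. The sample order also runs by replicate number within EV and OE and within the shRNA lines, which the main fits did not use. Depth limits the faintest members, whose lowest count in a library was 21 over the KD regions and 7 over the OE regions. Their SE reached 0.30 on the log2 scale between OE and EV, and 0.38 between KD and Scr over the OE regions.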
